A study of Mus musculus with 32 samples.

Results

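The genes described here are 9 that write, copy, oxidise or shield DNA methylation in the mouse oocyte, namely Dnmt1, Dnmt3a, Dnmt3b, Dnmt3l, Uhrf1, Tet3, Dppa3, Zfp57 and Trim28. They were taken by gene symbol from a table of RNA-seq read counts, in which all 9 had an entry among 37441 genes, and all 9 were among the 19003 genes that passed the filter on low counts. The table held 32 libraries of oocytes from females of B6, D2 and their B6xD2 F1 hybrid, aged 8 to 12 weeks, and the labels name no engineered allele. Germinal vesicle (GV) oocytes are arrested in meiotic prophase, and the medium used to gather them held the phosphodiesterase inhibitor IBMX, which keeps that arrest. Metaphase II (MII) oocytes are mature eggs, and whether hormones were given before collection is not stated in the labels used here. The zona was removed in both. Each library came from 9 to 20 oocytes of 1 mother, and the groups were B6 GV with 5 libraries, B6 MII with 6, D2 GV with 5, D2 MII with 5, F1 GV with 6 and F1 MII with 5. Libraries fell into sequencing batch 1 (18 libraries) and batch 2 (14 libraries), run on different instruments, and both batches held every group. The titles split batch 2 into a set without B6 libraries and a set with all strains. The fit over all libraries takes both sets as the same batch. Totals ran from 18696957 to 39688961 counts per library, and p-values measure the spread between pools, each from 1 mother. Whether a GV and an MII pool of the same strain shared a mother is not known here.

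DNA methylation in the female germ line is laid down in growing oocytes by DNMT3A together with its catalytically inactive cofactor DNMT3L, while DNMT1 copies existing marks after replication with the help of UHRF1, which binds hemimethylated CpG. After fertilization TET3, stored in the egg, oxidises methylcytosine mainly on the paternal genome. DPPA3 shields maternal chromatin from TET3 and limits UHRF1 in the oocyte nucleus, and ZFP57 binds methylated imprinting control regions and brings in TRIM28, the scaffold for repressive partners.

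The positions below are those of RefSeq on GRCm38.p6. Dnmt1 lies at chr9:20907206-20959888, Uhrf1 at chr17:56303337-56323486, Dnmt3a at chr12:3801559-3914443, Dnmt3b at chr2:153649411-153687730 and Dnmt3l at chr10:78042287-78063622. Tet3 lies at chr6:83362373-83457208 and Dppa3 on the same chromosome at chr6:122626424-122630271. Zfp57 lies at chr17:37001163-37010729 and Trim28 at chr7:13024152-13031032. Exons of other annotated genes overlapped only 2 of the 9 in the GENCODE annotation of GRCm38, and both on the opposite strand. The antisense gene Dnmt3aos covered 0.799% of the Dnmt3a exon bases, and Aire covered 2.24% of those of Dnmt3l. Whether the counting used strand was not given in the sources used here, so reads in those stretches cannot be told apart.

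Oocytes are known to start Dnmt1 at an oocyte-specific first exon upstream of the somatic one. The counts are per gene and add all starts together. The windows of 300 bases around the most upstream RefSeq start and around the start richest in CG pairs are shown because they differ in that respect. Capitals mark CG, and both run from 250 bases before the start to 50 after it on the minus strand of GRCm38.p6.
Dnmt1, chr9:20959839-20960138, 2 CG pairs: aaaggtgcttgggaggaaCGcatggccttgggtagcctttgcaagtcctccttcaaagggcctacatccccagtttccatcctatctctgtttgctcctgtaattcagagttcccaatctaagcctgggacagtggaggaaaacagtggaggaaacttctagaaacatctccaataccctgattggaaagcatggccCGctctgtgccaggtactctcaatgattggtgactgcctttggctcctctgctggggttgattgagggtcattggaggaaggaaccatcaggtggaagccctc
Dnmt1, chr9:20952574-20952873, 33 CG pairs: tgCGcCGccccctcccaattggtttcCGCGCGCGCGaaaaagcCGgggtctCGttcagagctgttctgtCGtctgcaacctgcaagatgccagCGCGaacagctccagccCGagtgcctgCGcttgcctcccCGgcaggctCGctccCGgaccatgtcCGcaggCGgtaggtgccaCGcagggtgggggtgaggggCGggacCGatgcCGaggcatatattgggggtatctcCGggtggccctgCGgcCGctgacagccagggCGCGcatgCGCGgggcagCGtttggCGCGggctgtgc
RefSeq gave 17 such windows for 8 of the 9 genes, with 2 to 47 CG pairs and a median of 12, against a median of 7 over 32851 windows of all genes. None of the 17 held TAATTG or TAATTA on either strand, a NOBOX-type motif that 12.4% of all windows held, and 13 held CANNTG, which 72.3% of all windows held.

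Oocytes also lengthen and shorten the poly(A) tails of stored mRNA during maturation, through sequences close to the 3′ end. The last 30 bases up to the polyadenylation hexamer, in capitals, are shown for the members in which one of the searched hexamers stood in the final 40 bases of the GENCODE transcript on GRCm38.
Dnmt1, chr9:20907225-20907254, minus strand: ttatatgttgtaatatttcttcaaAATAAA
Dnmt3a, chr12:3914392-3914421, plus strand: tattttcgctataaatagagcttcAATAAA
Dnmt3b, chr2:153687684-153687713, plus strand: gcccagagtttacctttctggttgATTAAA
Uhrf1, chr17:56323443-56323472, plus strand: tagattgttaacatattgcaataaAATAAA
Dppa3, chr6:122630230-122630259, plus strand: acgttctaatttccagaaatttgtAATAAA
Trim28, chr7:13030988-13031017, plus strand: aatggtttttacttctgtggatttAATAAA
A hexamer stood there in 69.4% of 21721 genes. The cytoplasmic polyadenylation element TTTTAT or TTTTAAT stood in the last 100 bases of Dnmt1, 48 bases before the end, and of Dnmt3a, 55 bases before it, and in none of the other 7, against 16.5% of all genes. Of those 7, Dnmt3l, Tet3 and Zfp57 had neither hexamer near the annotated end. That end may not be the one used, so the search cannot show that these transcripts lack the element. These matches describe the reference sequence only.

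Levels are given as CPM, a gene's count scaled to the library's total count after TMM normalisation, and between genes as CPM per kb of exon. The length counts every annotated exon base of a gene, 16695 for Tet3 and 7377 for Dnmt1. The transcripts searched above for 3′ ends held 5944 and 5367 bases. The place of Tet3 beside Dnmt1 and Zfp57 therefore depends on the length used. On the latter scale Dppa3 was the most abundant of the 9 in GV oocytes at 1710 ± 359 CPM per kb (SD, n = 16 libraries), followed by Zfp57 at 467 ± 119 and Dnmt1 at 448 ± 118, which overlapped each other. Tet3 was at 225 ± 60.1 and Uhrf1 at 101 ± 23.3 CPM per kb. Trim28 at 28.1 ± 8.64 and Dnmt3a at 19.3 ± 3.5 formed a lower step, with Dnmt3l at 10.2 ± 2.96 and Dnmt3b at 4.18 ± 0.909 below them. In MII oocytes Tet3 at 325 ± 91.1 CPM per kb stood above Dnmt1 at 237 ± 50.9, and Dnmt3b at 5.89 ± 1.45 stood beside Dnmt3l at 5.66 ± 2.38, with an order that turned between batches, while Dppa3 and Zfp57 kept the first places. In MII of batch 1 Dnmt3l was at 7.31 ± 1.77 and Dnmt3b at 5.73 ± 1.57 CPM per kb (SD, n = 9), and in batch 2 at 3.53 ± 0.799 and 6.09 ± 1.37 (n = 7). Among the methyltransferase transcripts the maintenance enzyme thus stood far above the de novo enzymes and their cofactor, and no Dnmt1 library at either stage came down to the level of any Dnmt3a, Dnmt3b or Dnmt3l library on this scale.

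**Figure D1:**
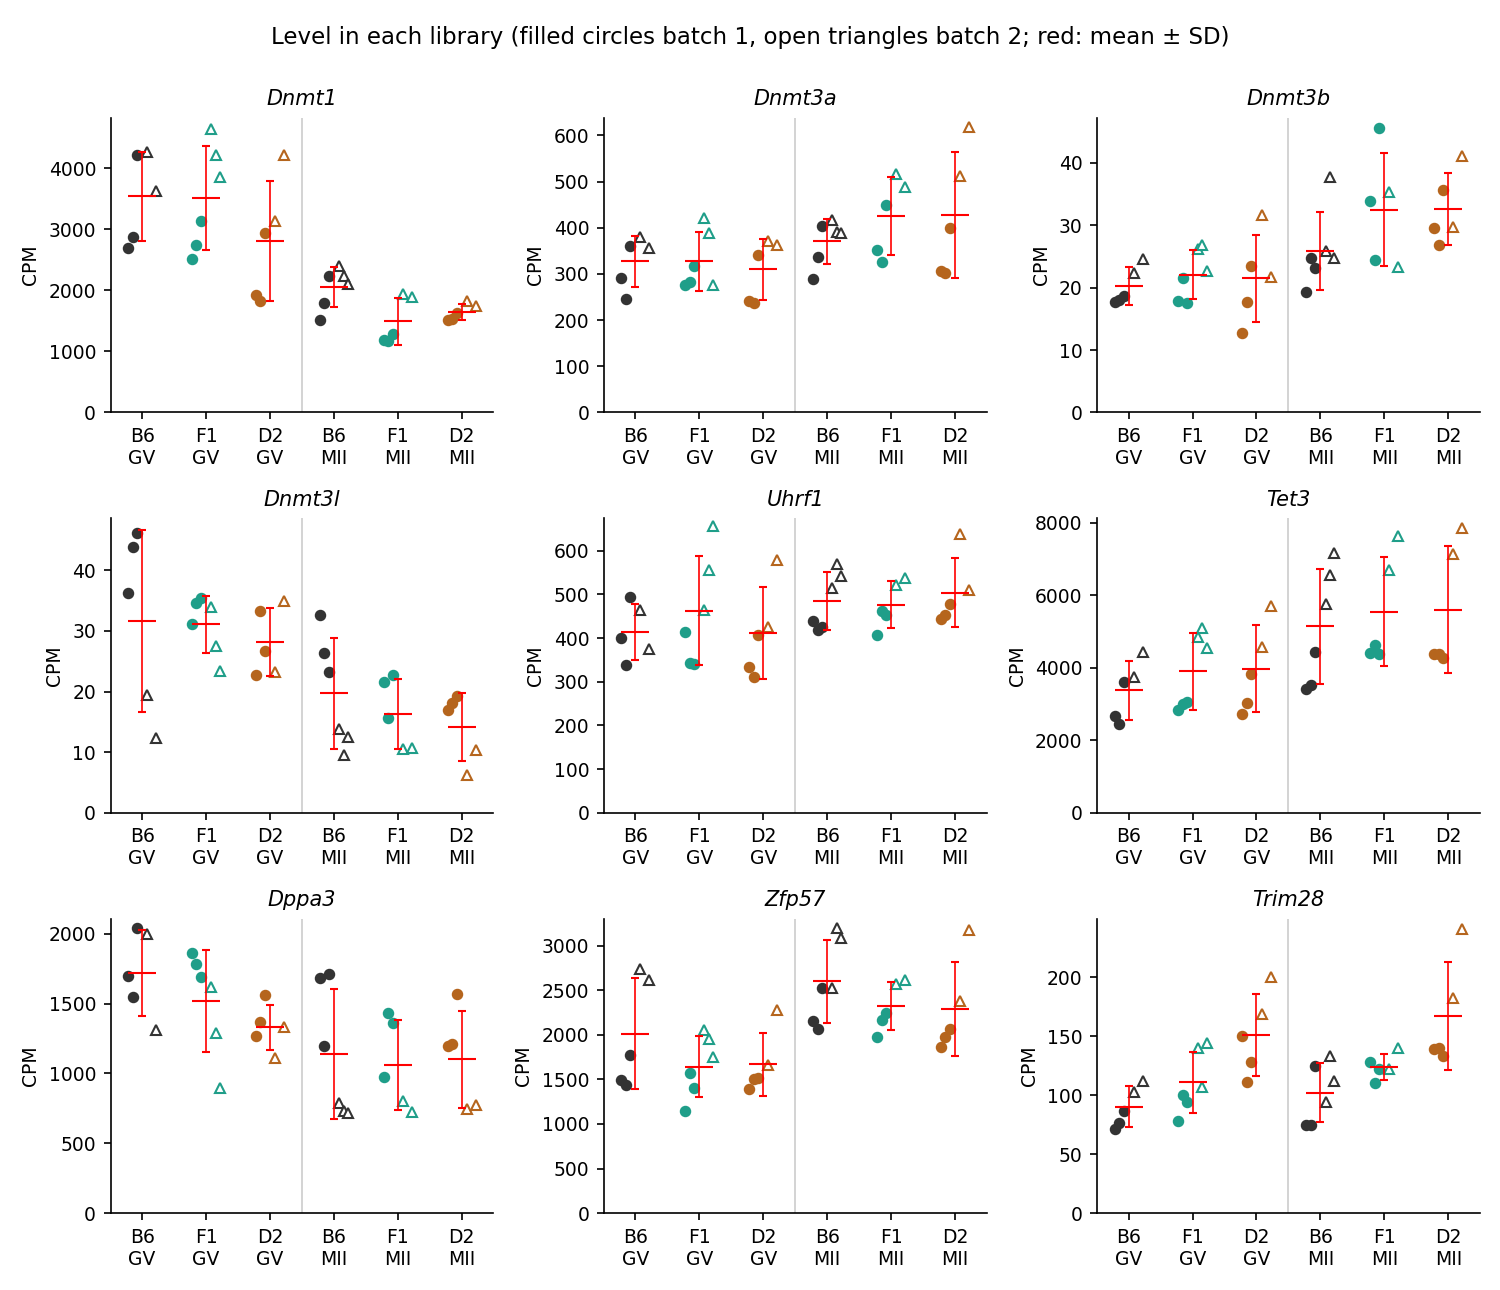
Level of each of the 9 genes in every library, in CPM on linear axes from 0, by strain and stage. Filled circles are batch 1 libraries, open triangles batch 2 libraries, and red marks the mean ± SD of a group; Dnmt1 and Dnmt3l were lower in MII, Tet3 and Zfp57 higher, and Trim28 was highest in D2 at both stages.

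The first comparison asked how the 9 transcripts differed between GV and MII oocytes, averaged over the 3 strains. Transcripts of Dnmt1, Dnmt3l and Dppa3 fell, and those of Tet3, Dnmt3b, Zfp57, Dnmt3a and Uhrf1 rose, while Trim28 did not pass the test. By the quasi-likelihood test of edgeR, with p-values adjusted after Benjamini and Hochberg over all genes tested, 8 of 9 members were called at 0.05. The background was high, since 51.9% of all genes tested were called, 22.9% higher and 29.0% lower in MII. Of the members 5 were higher and 3 lower. All changes are relative to the rest of the library, because RNA per oocyte was not measured and fewer cells of a type cannot be told apart from less RNA per cell. As a measure of RNA from granulosa and cumulus cells, 20 of their markers summed to 165 to 3990 CPM in GV libraries against 108 to 212 in MII libraries. How this RNA came into pools without a zona was not tested. The 10 oocyte markers summed to 8580 to 12800 CPM in GV and 7410 to 11700 in MII, so both stages carried oocyte RNA in every library. Of the 20 granulosa markers 10 were under 1 CPM in MII and 3 in GV, and 13 stroma and blood markers summed to 19.6 to 408 CPM in GV and 32 to 78.3 in MII. In 3 GV libraries (B6 batch 2 replicate 1, F1 batch 2 replicate 1 and D2 batch 2 replicate 2) the mean granulosa marker level lay within the MII range. Changes are therefore also given with the granulosa marker level as a term, and without these 3 libraries. The latter leaves GV libraries at a mean marker level of 2.25 log2 CPM or more, against at most 0.75 in MII. That version therefore cannot separate stage from granulosa RNA. In the version with the term the marker level still followed stage, at 2.71 ± 1.38 log2 CPM in GV and -0.38 ± 0.64 in MII (SD, n = 16 each). Only the 3 libraries named, all of batch 2, overlap the MII range, and the SE of each member's mean stage change grew. A call lost with the term therefore does not tell granulosa RNA apart from lost precision.

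Dnmt1, the maintenance methyltransferase, fell by 0.92 ± 0.08 on the log2 scale (SE, adjusted p = 3.87e-12 by edgeR), a 1.89-fold drop. Its lowest, median and highest GV libraries were at 1820, 3130 and 4650 CPM, and those of MII at 1170, 1760 and 2400. Altogether 9 of 16 MII libraries lay below every GV library. Within a batch the stages were further apart, since 8 of 9 MII libraries of batch 1 and 7 of 7 of batch 2 lay below every GV library of the same batch. The change was -0.87 ± 0.11 in batch 1 alone and -1.07 ± 0.08 in batch 2 alone. With the granulosa marker level as a term it was -1.12 ± 0.13 (adjusted p = 2.01e-08), and without the 3 GV libraries that had as little granulosa RNA as MII it was -0.86 ± 0.08. Uhrf1, its partner at hemimethylated CpG, was at 312, 410 and 657 CPM in the lowest, median and highest GV libraries and 406, 469 and 638 in MII, and no MII library lay outside the GV range. Its log2 change of 0.19 ± 0.07 passed in the fit over all libraries (adjusted p = 0.0157) but was 0.13 with a stricter filter of 1 CPM in at least 16 libraries (adjusted p = 0.0803), 0.09 ± 0.10 in batch 2 alone (adjusted p = 0.574) and 0.01 ± 0.12 with the granulosa term (adjusted p = 0.979 by edgeR).

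The de novo enzymes and their cofactor moved in opposite directions. Dnmt3a, the enzyme of oocyte methylation, was at 322 ± 58.4 CPM in GV and 406 ± 91.9 in MII (SD, n = 16 each), with a log2 change of 0.33 ± 0.07 (adjusted p = 0.000257 by edgeR). Only 5 of 16 MII libraries lay above every GV library. Dnmt3b, which methylates mainly after implantation and is not needed for oocyte methylation in mice, was low throughout, at 21.3 ± 4.64 CPM in GV and 30.1 ± 7.4 in MII. Its log2 change was 0.52 ± 0.11 (adjusted p = 9.95e-05) over all libraries and 0.63 ± 0.14 in batch 1, yet 0.24 ± 0.16 in batch 2 (adjusted p = 0.321). Dnmt3l, which activates DNMT3A without catalytic activity of its own, fell from 30.3 ± 8.83 to 16.9 ± 7.12 CPM. Its log2 change of -0.94 ± 0.13 (adjusted p = 3.04e-07) was -0.68 ± 0.12 in batch 1 and -1.28 ± 0.19 in batch 2, and -1.48 ± 0.21 with the granulosa term. The lowest MII library of Dnmt3l stood at 6.3 CPM and the highest at 32.7, against 12.4 and 46.1 in GV, so the stages overlapped, and 5 of 16 MII libraries lay below every GV library. With the granulosa term the Dnmt3a change was 0.29 ± 0.14 (adjusted p = 0.171) and that of Dnmt3b 0.45 ± 0.21 (adjusted p = 0.157), neither of which passed. Their SEs without the term were 0.07 and 0.11.

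Tet3 and Dppa3, the oxidase and the factor that shields maternal chromatin from it, also moved apart. Tet3 was at 2440, 3690 and 5710 CPM in the lowest, median and highest GV libraries and at 3410, 4540 and 7860 in MII. Within each batch 7 MII libraries lay above every GV library of that batch, of 9 in batch 1 and of 7 in batch 2. Its log2 change was 0.52 ± 0.06 (adjusted p = 3.19e-09 by edgeR), 0.45 ± 0.09 in batch 1, 0.52 ± 0.08 in batch 2 and 0.48 ± 0.11 with the granulosa term (adjusted p = 0.00193), so this rise held in each. Dppa3 was at 893, 1560 and 2040 CPM in the lowest, median and highest GV libraries and at 718, 1090 and 1710 in MII. All 7 MII libraries of batch 2 lay below every GV library of that batch, against 4 of 9 in batch 1. The log2 change of Dppa3 was -0.52 ± 0.09 (adjusted p = 1.65e-05) over all libraries, -0.28 ± 0.10 in batch 1 and -0.93 ± 0.12 in batch 2. It passed in both, and was -0.95 ± 0.13 with the granulosa term and -0.39 ± 0.08 without the 3 GV libraries low in granulosa markers.

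Zfp57, the zinc finger protein that reads methylated imprints, was at 1140, 1620 and 2740 CPM in the lowest, median and highest GV libraries and at 1860, 2310 and 3200 in MII. All 9 MII libraries of batch 1 lay above every GV library of the batch, against 3 of 7 in batch 2. Its log2 change was 0.45 ± 0.06 (adjusted p = 1.02e-07 by edgeR), 0.51 ± 0.07 in batch 1 and 0.28 ± 0.09 in batch 2 (adjusted p = 0.0337). With the granulosa term it was 0.22 ± 0.10 (adjusted p = 0.152), which did not pass, nor did it in B6, F1 or D2 taken alone (0.12, 0.30 and 0.24). Trim28, the corepressor that ZFP57 brings to imprints, was at 117 ± 35.8 CPM in GV and 129 ± 39.8 in MII (SD, n = 16 each). Its log2 change of 0.18 ± 0.08 gave an adjusted p of 0.0504 in edgeR, and it was 0.02 ± 0.14 with the granulosa term and 0.02 ± 0.11 in batch 2 alone. The value lies at the threshold, and 16 of the other settings tried moved it past, at log2 changes of 0.18 to 0.20.

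**Figure D2:**
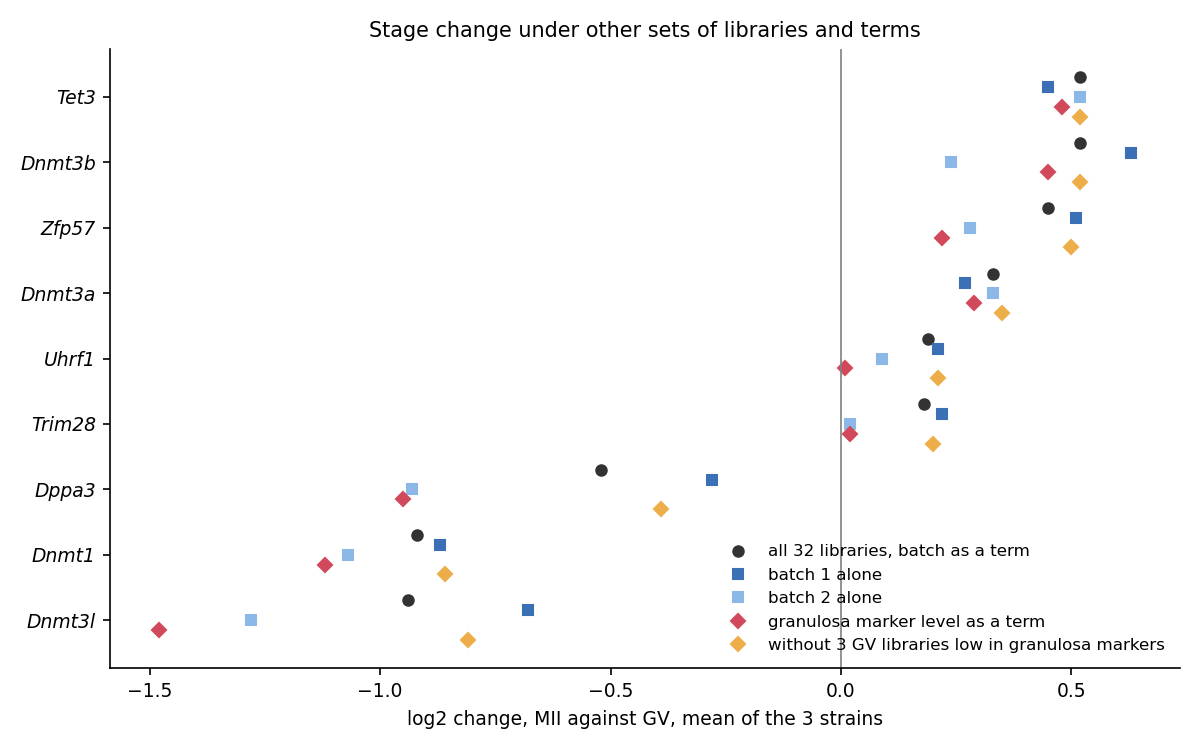
Log2 change of each gene between GV and MII, as a mean of the 3 strains, with all libraries, in each batch alone, with the granulosa marker level as a term, and without the 3 GV libraries low in granulosa markers. Dnmt1, Dnmt3l and Dppa3 lie left of 0 and Tet3 right of 0 in all 5 versions, while Uhrf1 and Trim28 reach 0.01 and 0.02 with the granulosa term.

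Strain by strain, Dnmt1, Dnmt3l, Tet3 and Zfp57 changed in the same direction in all 3 and passed the test in each. In B6 5 members were called (26.7% of all genes tested), in F1 7 (32.9%) and in D2 6 (28.7%), all by edgeR with Benjamini-Hochberg adjustment. Dnmt1 fell by 0.84 ± 0.13 in B6, 1.20 ± 0.13 in F1 and 0.72 ± 0.14 in D2 on the log2 scale. Dnmt3l fell by 0.59 ± 0.22 in B6 (adjusted p = 0.0427), 1.09 ± 0.23 in F1 and 1.13 ± 0.24 in D2. Tet3 rose by 0.50 ± 0.10, 0.58 ± 0.10 and 0.48 ± 0.10, and Zfp57 by 0.35 ± 0.10, 0.56 ± 0.10 and 0.45 ± 0.11, in B6, F1 and D2. Single batches hold fewer libraries, and some of these calls were lost there. Tet3 did not pass in batch 1 in B6 (0.41) or in either batch in D2 (0.36 and 0.42). Zfp57 did not pass in batch 2 in B6 (0.09, adjusted p = 0.776 by edgeR), F1 (0.38) or D2 (0.37), nor in batch 1 in D2 (0.34). Dppa3 fell by 0.63 ± 0.16 in B6 and 0.60 ± 0.16 in F1, and was at -0.33 ± 0.17 in D2 (adjusted p = 0.135). In batch 1 alone the B6 change of Dppa3 was -0.18 (adjusted p = 0.498 by edgeR). Its D2 change passed with the granulosa term (-0.72, adjusted p = 0.00516) and in the fit to the compared groups alone (-0.4, adjusted p = 0.0294 by edgeR). Dnmt3a and Dnmt3b were called in F1 and D2, at 0.41 ± 0.13 and 0.44 ± 0.13 for Dnmt3a and 0.62 ± 0.18 and 0.62 ± 0.19 for Dnmt3b. In B6 they were at 0.15 ± 0.13 and 0.32 ± 0.18 and did not pass.

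The calls that differed between strains did not show a difference of the stage change itself. No member was called when the stage change was compared between D2 and B6 (0.105% of all genes were), between F1 and B6 (0.0105%) or between F1 and D2 (0.0316%), by edgeR, DESeq2 or limma-voom. At an unadjusted p under 0.05 only Dnmt1 between F1 and D2 passed, at a difference of -0.47 ± 0.19 (95% interval -0.84 to -0.11, edgeR adjusted p = 0.783). The interval of the Dnmt3a difference between D2 and B6 ran from -0.06 to 0.65. The B6 call of Dnmt3l was close to the threshold, and leaving out any 1 of 8 of the 11 B6 libraries (GV replicates 2, 4 and 5 and MII replicates 2 and 3 of batch 1, and MII replicates 1, 2 and 3 of batch 2) lost it, at log2 changes of -0.48 to -0.59 and adjusted p of 0.0587 to 0.133. The Dnmt3a call in D2 was lost without MII batch 2 replicate 2 (0.34, adjusted p = 0.0566 by edgeR), GV batch 1 replicate 3 (0.36, adjusted p = 0.058) or GV batch 1 replicate 4 (0.35, adjusted p = 0.0615), and that of Dnmt3b in D2 without GV batch 1 replicate 3 (0.46, adjusted p = 0.0826). In F1 both calls were lost without MII batch 1 replicate 5, with Dnmt3a at 0.34 (adjusted p = 0.0505) and Dnmt3b at 0.43 (adjusted p = 0.0675 by edgeR). In the other direction Uhrf1 passed in B6 without GV batch 1 replicate 5 (0.30, adjusted p = 0.0419) and in D2 without GV batch 2 replicate 2 (0.40, adjusted p = 0.014) or MII batch 2 replicate 2 (0.35, adjusted p = 0.0379 by edgeR).

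**Figure D3:**
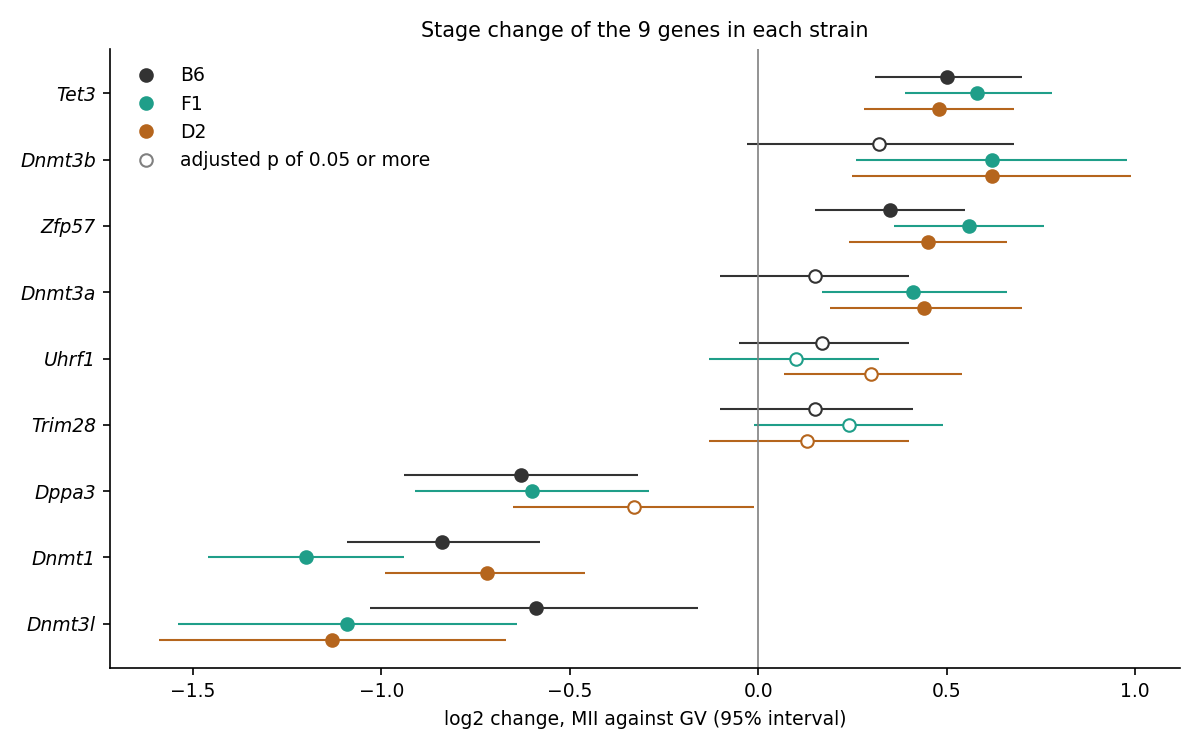
Log2 change of each gene between GV and MII oocytes in B6, F1 and D2, with 95% intervals; filled points had an adjusted p under 0.05 in edgeR. Dnmt1 spans -0.72 in D2 to -1.20 in F1, Tet3 0.48 to 0.58, and the intervals of the 3 strains overlap for every gene.

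The second comparison asked how the parental strains differed at each stage. Trim28 was higher in D2 than in B6 oocytes at both stages. In GV oocytes Trim28 was at 71.3, 76.5 and 86.9 CPM in B6 batch 1 and 103 and 112 in B6 batch 2, against 111, 128 and 150 in D2 batch 1 and 169 and 200 in D2 batch 2. In MII oocytes it was at 74.4, 74.6 and 125 CPM in B6 batch 1 and 94.5, 112 and 133 in B6 batch 2, against 133, 139 and 140 in D2 batch 1 and 182 and 241 in D2 batch 2. Within each batch and stage every D2 library lay above every B6 library, while across batches 4 of 5 D2 libraries did so in GV and 4 of 5 in MII. The D2 minus B6 difference in log2 was 0.75 ± 0.14 in GV (adjusted p = 6.65e-05 by edgeR) and 0.73 ± 0.13 in MII (adjusted p = 3.36e-05). It was 0.79 ± 0.17 and 0.80 ± 0.19 in GV within batches 1 and 2, and 0.54 ± 0.17 and 0.85 ± 0.17 in MII. With the granulosa term it was 0.76 ± 0.13 in both stages, and the call held in every alternative that did not ask for a difference of at least 2-fold.

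Trim28 was the only member called between D2 and B6 in MII, where 26.4% of all genes tested were called, and 1 of 2 in GV, where 20.5% were. The other was Dnmt1, at 1920, 1820 and 2940 CPM in D2 GV batch 1 and 3140 and 4220 in batch 2, against 2700, 2880 and 4220 in B6 GV batch 1 and 4260 and 3620 in batch 2. Its D2 minus B6 difference in GV was -0.37 ± 0.13 (adjusted p = 0.0476 by edgeR), -0.49 ± 0.18 in batch 1 and -0.08 ± 0.15 in batch 2, neither of which passed alone. Leaving out any 1 of 8 of the 10 libraries, all except replicate 2 of batch 2 in each strain, gave -0.18 to -0.37 and adjusted p of 0.0585 to 0.39, which lost the call. It was also lost with DESeq2 (adjusted p = 0.0724), RLE scaling (0.0756), upper quartile scaling (0.0572), no filter (0.15), no batch term (0.362) and the compared groups alone (0.201). In MII the Dnmt1 difference was -0.26 ± 0.13 (adjusted p = 0.147), and only the fit to the compared groups alone called it (-0.29, adjusted p = 0.0239). Reads of all strains were aligned to GRCm38, a genome built from B6, and reads that carry D2 variants can be lost in such an alignment. Such a loss lowers D2 counts. Its part in the lower Dnmt1 of D2, and its effect on the D2 counts of Trim28, were not tested.

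The remaining 7 genes were not called between D2 and B6. Dnmt3l was at 0.01 ± 0.23 in GV as a mean of batches, but at -0.55 ± 0.20 in batch 1 and 0.89 ± 0.34 in batch 2, so the batches did not show 1 direction. In MII it was -0.53 ± 0.22 (adjusted p = 0.081 by edgeR), and it passed in 4 alternatives. These were batch 1 alone (-0.64, adjusted p = 0.0312), the compared groups alone (-0.57, adjusted p = 0.028), without the 3 GV libraries low in granulosa markers (-0.54, adjusted p = 0.0416) and without B6 MII batch 2 replicate 2 (-0.61, adjusted p = 0.0451 by edgeR). Tet3 was at 0.21 ± 0.10 in GV (adjusted p = 0.156) and 0.19 ± 0.10 in MII. It passed in GV without D2 batch 2 replicate 1 (0.35, adjusted p = 0.0173), B6 batch 1 replicate 5 (0.39, adjusted p = 0.00253), D2 batch 1 replicate 3 (0.35, adjusted p = 0.0149) or D2 batch 1 replicate 4 (0.32, adjusted p = 0.0346 by edgeR). Dppa3 was at -0.38 ± 0.16 in GV (adjusted p = 0.102) and passed without D2 batch 2 replicate 2 (-0.49, adjusted p = 0.0456 by edgeR), and Zfp57 was at -0.24 ± 0.11 (adjusted p = 0.115). Uhrf1 and Dnmt3a gave intervals of -0.27 to 0.19 and -0.34 to 0.17 in GV, and -0.13 to 0.32 and -0.04 to 0.46 in MII, which bound how large a strain difference these libraries leave room for.

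The third comparison set the F1 hybrid against each parent and against the mean of the parents' log2 levels. These comparisons share libraries with each other and with D2 against B6, so their values are given side by side. Trim28 in F1 lay between the parents, at 78.4, 94.3 and 100 CPM in GV batch 1 and 107, 140 and 144 in batch 2, and at 110, 122 and 128 in MII batch 1 and 122 and 140 in batch 2. In GV it was lower in F1 than in D2 by -0.50 ± 0.13 (adjusted p = 0.0125 by edgeR), the only member called of a background of 6.05%, and it differed from B6 by 0.25 ± 0.13. That call was lost without D2 GV batch 2 replicate 2 (-0.45, adjusted p = 0.0537). In MII it differed from D2 by -0.39 ± 0.13 (adjusted p = 0.0693), with every F1 library of a batch below every D2 library of that batch, and from B6 by 0.34 ± 0.13 (adjusted p = 0.108), or 0.47 without B6 MII batch 1 replicate 3 (adjusted p = 0.0114 by edgeR).

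Dnmt1 was lower in F1 than in B6 MII oocytes by -0.44 ± 0.13 (adjusted p = 0.0308 by edgeR), the only member called there, where 7.36% of all genes were. F1 MII libraries were at 1170, 1180 and 1290 CPM in batch 1 and 1890 and 1940 in batch 2, and those of B6 MII at 1520, 1790 and 2230 in batch 1 and 2110, 2230 and 2400 in batch 2. All F1 libraries of a batch lay below all B6 libraries of that batch. In batch 2 the titles place the F1 and the B6 MII libraries in different sets, so strain and set cannot be told apart there. The difference was -0.64 ± 0.18 in batch 1 (adjusted p = 0.0582) and -0.25 ± 0.14 in batch 2 (adjusted p = 0.524). The call was lost without B6 MII batch 1 replicate 3 (-0.36, adjusted p = 0.0895) and without F1 MII batch 1 replicate 3 (-0.41, adjusted p = 0.0814), 4 (-0.40, adjusted p = 0.0727) or 5 (-0.44, adjusted p = 0.0625 by edgeR). No member was called by edgeR between F1 and B6 in GV (background 5.50%) or between F1 and D2 in MII (8.11%). In each of these 1 member had an unadjusted p under 0.05 and 1 was called by DESeq2, namely Zfp57 at -0.32 ± 0.10 against B6 in GV (edgeR adjusted p = 0.0589) and Trim28 against D2 in MII, and limma-voom called 1 and 0. Zfp57 also passed in edgeR without B6 GV batch 1 replicate 4 (-0.35, adjusted p = 0.0477). Against the mid-parent no member was called in GV (0.879% of all genes) or MII (1.16%) by edgeR, DESeq2 or limma-voom, and 1 had an unadjusted p under 0.05 at each stage. These were Zfp57 in GV, at -0.20 ± 0.09, and Dnmt1 in MII, at -0.31 ± 0.12 (95% interval -0.54 to -0.08, edgeR adjusted p = 0.263).

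**Figure D4:**
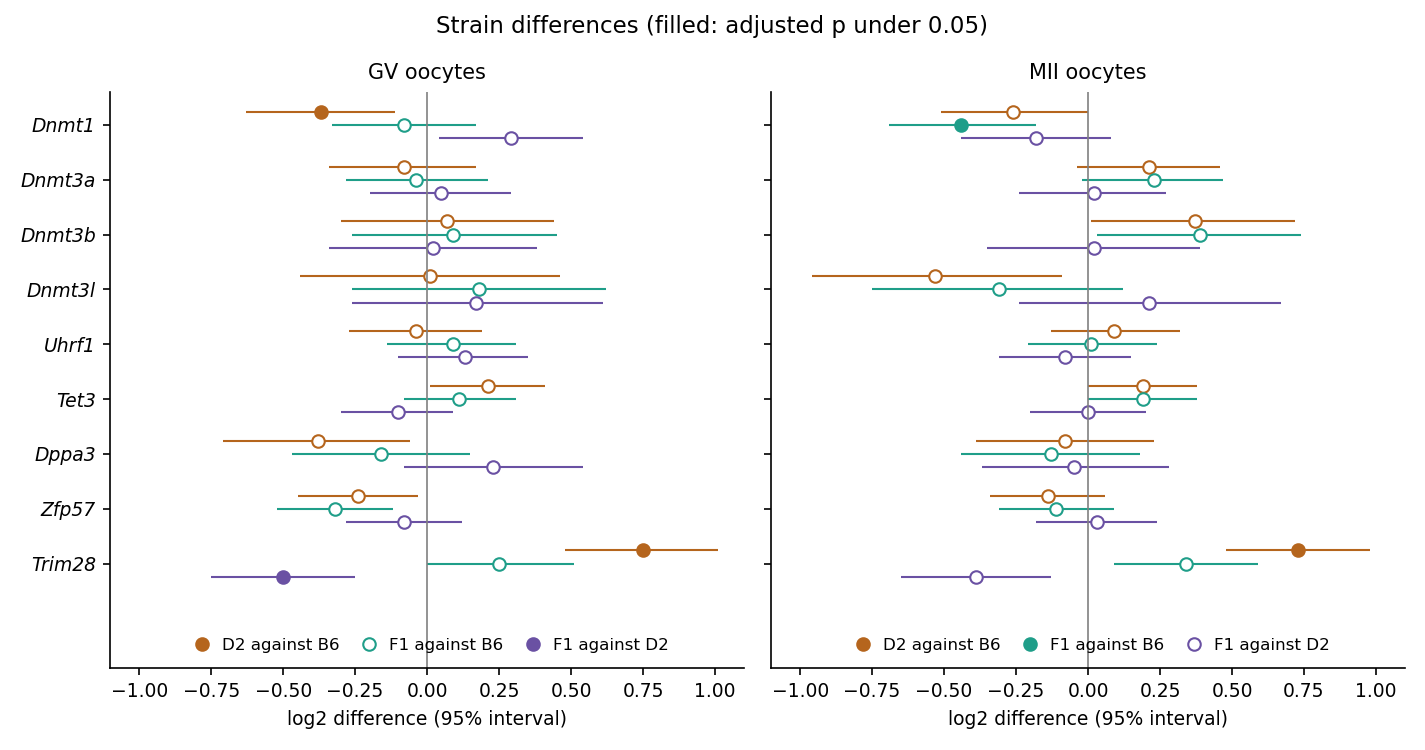
Log2 differences between strains in GV and MII oocytes with 95% intervals; filled points had an adjusted p under 0.05 in edgeR. Trim28 stands at 0.75 and 0.73 for D2 against B6, with F1 between the parents, and most intervals of the other genes include 0.

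All 9 genes differed between the sequencing batches, against 42.4% of all genes tested. Dnmt3l was lower in batch 2 by -0.78 ± 0.14 and Dppa3 by -0.57 ± 0.09, while the other 7 were higher, from 0.30 ± 0.11 for Dnmt3b to 0.69 ± 0.06 for Tet3 (adjusted p = 3.06e-12 by edgeR). Without D2 GV batch 2 replicate 1 the Dnmt3b difference was 0.25 (adjusted p = 0.0619 by edgeR). For 6 members the batch difference was larger in size than the mean stage change, namely Tet3 (0.69 and 0.52), Zfp57 (0.47 and 0.45), Trim28 (0.43 and 0.18), Dnmt3a (0.39 and 0.33), Uhrf1 (0.36 and 0.19) and Dppa3 (-0.57 and -0.52). Dppa3 in B6 MII was at 1200, 1680 and 1710 CPM in batch 1 and 718, 731 and 791 in batch 2.

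Around the 9 genes, 71 others of the pathway were listed by role, of which 70 had an entry and were tested. Averaged over the strains, 32 were higher and 16 lower in MII, 68.6% against the 51.9% of all genes, with a median log2 change of 0.18 against -0.06 for all genes tested. With the granulosa marker level as a term 9 were higher and 3 lower (17.1%, against 14.4% of all genes), so 12 calls were made in place of 48. Without the 3 GV libraries low in those markers 49 were called, in batch 1 alone 42 and in batch 2 alone 20. The share of all genes called in these settings is not given here, so these counts cannot be set against a background. In the list for establishment of oocyte methylation 7 of 9 rose and none fell by edgeR, with a median of 0.35. Nsd1, a histone H3 lysine methyltransferase, rose from 766 ± 235 to 1170 ± 354 CPM (SD, n = 16 each; log2 change 0.62 ± 0.05). Kmt2b, a histone methyltransferase needed in oocytes, rose by 0.53 ± 0.08 and Nsd2, a paralogue of Nsd1, by 0.38 ± 0.06. With the granulosa term 4 of the 9 passed, Nsd1 at 0.57 ± 0.09, Kmt2b at 0.43 ± 0.15, Nsd2 at 0.35 ± 0.11 and Kdm5c, a histone demethylase, at 0.51 ± 0.17. In the list for imprint protection and heterochromatin 8 of 14 rose and 2 fell. H3f3b, which encodes histone H3.3, rose by 0.63 ± 0.07, Ctcf, the insulator protein, by 0.50 ± 0.07, and Atf7ip, a partner of SETDB1, by 0.43 ± 0.05. With the granulosa term H3f3b (0.75 ± 0.14) and Atf7ip (0.31 ± 0.08) passed and Ctcf (0.34 ± 0.12, adjusted p = 0.055 by edgeR) did not. Among the partners of maintenance methylation 4 of 6 rose and 1 fell, opposite to Dnmt1 for most. Hells, a chromatin remodeller, rose by 0.50 ± 0.08, its cofactor Cdca7 by 0.82 ± 0.20 from 5.95 ± 2.2 CPM, and the replication clamp Pcna by 0.29 ± 0.06. The other methyltransferase gene, Trdmt1, which methylates transfer RNA, rose by 0.43 ± 0.16. Neither Trdmt1 (-0.01 ± 0.29) nor any of the 6 maintenance partners passed with the granulosa term.

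Of the genes for oxidation and base excision 3 of 14 rose and 6 fell (64.3%, against 51.9% of all genes), with a median of -0.20. Polb, the repair polymerase, fell by 0.79 ± 0.12 from 15.7 ± 6.08 CPM, while Lig3, a ligase, rose by 0.56 ± 0.07 and Smug1, a glycosylase, by 0.44 ± 0.07. Of the methyl-CpG readers 1 of 7 rose and 4 fell (71.4%), with a median of -0.58. Mbd3, a subunit of the NuRD complex, fell from 16.3 ± 6.45 to 5.69 ± 2.16 CPM (log2 change -1.47 ± 0.19) and Mbd2 by 0.58 ± 0.20, while Zbtb33 rose by 0.40 ± 0.08. Of the ubiquitin ligase CRL4-DCAF1 with OGT, partners of TET enzymes, 4 of 6 rose and 2 fell (100%). Ddb1 rose by 0.48 ± 0.08 and Cul4b by 0.40 ± 0.09, and Rbx1, the RING subunit, fell by 0.67 ± 0.10. In the S-adenosylmethionine and folate cycle, which makes the methyl donor, 4 of 13 rose and 1 fell (38.5%, below the 51.9% of all genes), with Shmt2 at 0.36 ± 0.09, Mat2b at 0.28 ± 0.07 and Mat2a at 0.26 ± 0.06. With the granulosa term Polb was at -1.25 ± 0.20, Rbx1 at -0.81 ± 0.17, Mbd3 at -1.47 ± 0.35, Lig3 at 0.46 ± 0.13, Ddb1 at 0.48 ± 0.15 and Mat2a at 0.35 ± 0.11, and these passed. Smug1, Zbtb33, Mbd2, Cul4b, Shmt2 and Mat2b did not pass with it.

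**Figure D5:**
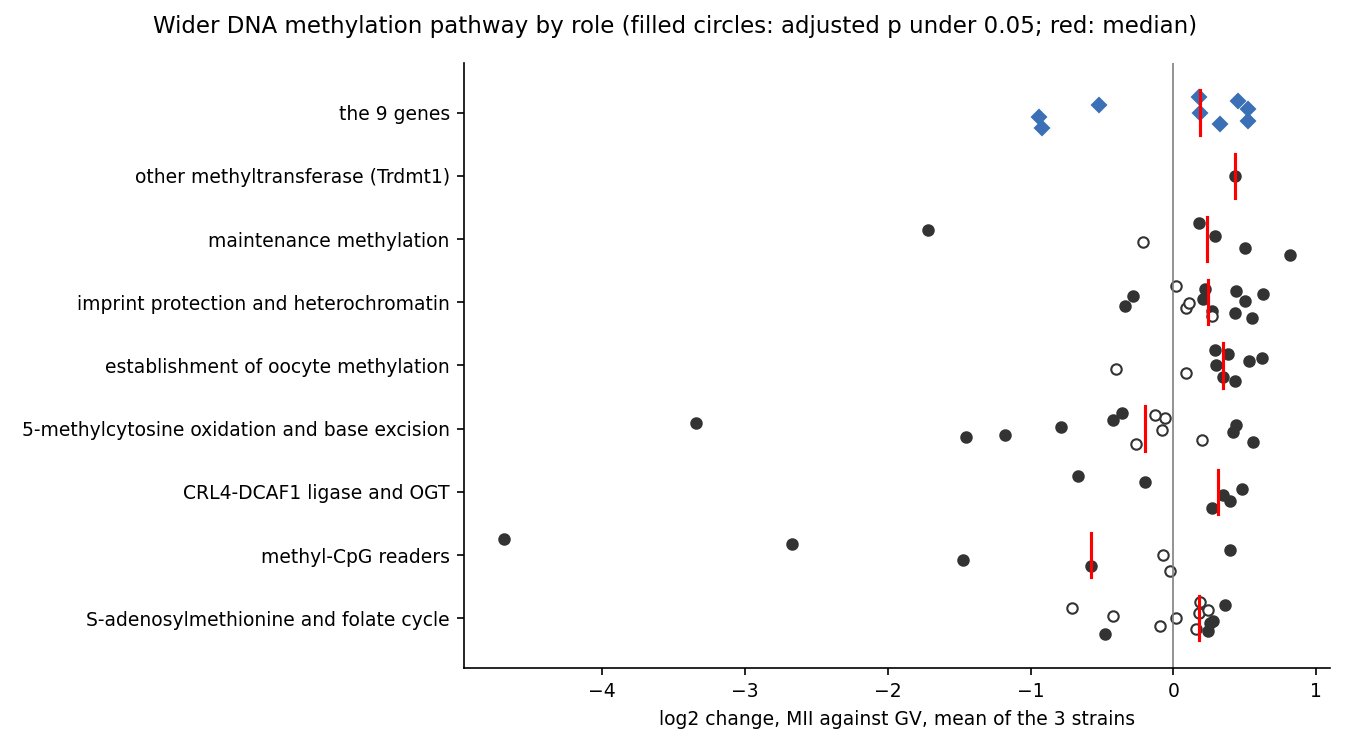
Log2 change between GV and MII, as a mean of the 3 strains, for the 9 genes (diamonds) and 70 further genes by role (circles, filled where the edgeR adjusted p was under 0.05), with the median of each role in red. The median is 0.35 for establishment of methylation and -0.58 for methyl-CpG readers.

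Between D2 and B6 the wider pathway was called about as often as all genes, with 9 higher and 6 lower in GV (21.4% of 70) and 14 higher and 3 lower in MII (24.3%). Daxx, the histone chaperone that deposits H3.3, was higher in D2 in both, by 1.05 ± 0.14 in GV (29.5 ± 5.33 CPM in B6, SD, n = 5, and 61.2 ± 5.93 in D2, n = 5) and 0.72 ± 0.13 in MII. Mat2a, which makes S-adenosylmethionine, was higher by 0.70 ± 0.11 in GV and 0.92 ± 0.10 in MII. Kdm1b, a demethylase needed for maternal imprints, was higher in D2 by 0.42 ± 0.11 in GV and 0.53 ± 0.10 in MII. Dcaf1 was higher in MII by 0.89 ± 0.13, and in GV its difference of 0.35 ± 0.14 did not pass (adjusted p = 0.0673 by edgeR). Of the 70 genes 4 were called between F1 and B6 in GV, 5 in MII, 2 between F1 and D2 in GV and 2 in MII. These are 5.71%, 7.14%, 2.86% and 2.86% of the list, against 5.50%, 7.36%, 6.05% and 8.11% of all genes. None was called against the mid-parent or for a difference of the stage change by edgeR.

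The genes whose 6 group levels were most like a member's were found by the root mean square difference of centred log2 CPM, adjusted for batch, among 8858 genes with a mean of at least 5 CPM. For Dnmt1 they were Slc11a2, at 0.06, and Slc35b1, at 0.08, and for Dnmt3l Gemin7, at 0.05, and Snx3, at 0.07. For Tet3 they were Plag1 and Prdm10, both at 0.02, for Zfp57 Cnot4 at 0.02 and Itga8 at 0.03, and for Dppa3 Krt12 and Med4, both at 0.04. For Trim28 they were Stim2 and Reep4, both at 0.05. The others were Pdzd8 at 0.01 and Serbp1 at 0.03 for Dnmt3a, Arhgap10 at 0.02 and Prps1l3 at 0.03 for Dnmt3b, and Pttg1ip at 0.02 and Lamb1 at 0.03 for Uhrf1. The median over all candidates ran from 0.26 for Uhrf1 to 0.63 for Dnmt1 and Dnmt3l, and no member was among the 2 nearest genes of another.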

How the data were processed

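The authors deposited read counts per gene, not scaled, for 32 libraries. Per the labels' protocols, RNA was amplified by SPIA, fragmented, carried through 12 cycles of library PCR, and read as single reads of 50 bases on a HiSeq 2500 or 4000. Per the submitters' processing notes, HISAT2, SAMtools and featureCounts of Subread 1.5.1 were used with GRCm38.p4, and DESeq2 1.16.1 later; strand and multi-mapping settings are not given in the sources used here. Of 37444 entries 3 named no gene or held no value (at most 0.019% of a library) and were left out. A RefSeq symbol matched 36371 genes.

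Counts were filtered with filterByExpr, scaled by TMM and fitted with edgeR 4.0.16 in R 4.3.3 (robust quasi-likelihood, 6 groups and batch), with Benjamini-Hochberg adjustment over 19003 genes in each of 15 contrasts and the batch, at 0.05. DESeq2 1.42.0 and limma 3.58.1 were alternatives, and the code was tested on simulated data. Positions and promoters come from RefSeq (GRCm38.p6), and exon lengths and 3′ ends from GENCODE (GRCm38). Pathway genes were named by role, up to 3 called genes with the lowest adjusted p and a mean of at least 5 CPM, with Daxx, Mat2a, Kdm1b and Dcaf1 picked from those for the strain comparison after their values were seen. The members and lists were chosen with earlier results of these data known. SDs and SEs include the spread between libraries.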

Additional observations from a re-analysis of the deposited data

Results flagged for a closer look

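Dnmt3b in B6 MII oocytes had 1 library apart from the other 5. Replicate 2 of batch 2 was at 37.7 CPM and the others at 19.3 to 25.9 CPM, a gap of 0.64 of the group's range. It was the only one of 54 groups of a gene's libraries in which the highest or lowest library stood that far out, and chance marks about 1 in 20.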

How the results depend on the processing

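Of 1287 alternative values for 40 called gene-level results, 1194 kept direction and call, 93 lost the call and 0 reversed. The number of the 9 genes called for the mean stage change was 8, and was 0 when a change of at least 2-fold was asked for and 4 with the granulosa term. The share of all genes called was 51.9% in the fit over all libraries and 14.4% with the granulosa term. For the other settings that share is not given here, so their counts cannot be set against a background. In B6 it was 5, and 0 at 2-fold, 1 with no batch term, and 3 in batch 1 alone and 3 in batch 2 alone. In F1 it was 7, and 2 at 2-fold, 2 with no batch term, 4 in batch 2 alone and 4 with the granulosa term. In D2 it was 6, and 1 at 2-fold and 2 with no batch term or in either batch alone. For D2 against B6 in GV it was 2, and 0 at 2-fold and 1 with RLE or upper quartile scaling, no filter, DESeq2, no batch term, either batch alone or the compared groups alone. In MII it was 1, and 0 at 2-fold, 2 in batch 1 alone or without the GV libraries low in granulosa markers, and 3 with the compared groups alone. For F1 against B6 in GV it was 0, and 1 with a filter at 1 CPM, DESeq2, limma-voom or the granulosa term. For F1 against D2 in GV it was 1, and 0 at 2-fold, with no batch term or in either batch. For F1 against B6 in MII it was 1, and 0 at 2-fold, with limma-voom, no batch term or in either batch. For F1 against D2 in MII it was 0, and 1 with RLE, a filter at 1 CPM, DESeq2, the compared groups alone, the replicate block or the granulosa term. For the batches it was 9, and 0 at 2-fold. The cause was not tested for these, other than that a single batch holds fewer libraries. Leaving out 1 library at a time gave 8 to 9 for the mean stage change, 4 to 5 in B6, 5 to 7 in F1, 4 to 7 in D2, 1 to 3 for D2 against B6 in GV and 1 to 2 in MII, 0 to 1 for F1 against B6 in GV, F1 against D2 in GV and F1 against B6 in MII, 8 to 9 for the batches and 0 in the others. Same-numbered GV and MII libraries of a strain and batch did not deviate together (11 pairs, r from -0.27 to 0.09, median -0.04). The 32 pairs with different numbers had a median of -0.05. These few correlations cannot show whether a same-numbered pair shared a mother. With the replicate block 9 genes were called for the mean stage change, 4 in B6, 7 in F1, 7 in D2, and 3 and 1 for D2 against B6 in GV and MII. RLE scaling moved the median of all genes from -0.06 to -0.10 for the mean stage change. RNA per oocyte, isoforms and alignment of D2 reads were not measured here.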
